A study of Saccharomyces cerevisiae with 119 samples.

Results

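The ethanol response of yap1∆ cells was measured against that of wild-type (WT) cells of YPS606, a wild oak isolate of Saccharomyces cerevisiae kept as a diploid made homozygous by selfing. The yap1∆ strain lacks YAP1, which a KanMX drug resistance cassette replaced, and no other allele separates it from WT in the sources used here. How many separate deletion clones were profiled is not given in those sources. The 4 groups were yap1∆ after ethanol, yap1∆ unstressed, WT after ethanol and WT unstressed, with 4 libraries each. These 16 libraries were chosen by genotype and treatment from 48 in the experiment on transcription factor mutants and 119 in the whole series. The rest of the 48 came from skn7∆ and msn2∆ msn4∆ cells, and from all genotypes after 0.4 M NaCl for 45 min. All 48 entered the fit and set the spread behind the p-values. Cells were grown in YPD at 30 °C, an unstressed sample was drawn, and part of the same culture was mixed with medium to a final 5% (v/v) ethanol for 30 min. The unstressed sample was not diluted, so ethanol and the dilution into fresh medium cannot be told apart within a response, and both genotypes were handled alike.

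Yap1p is a bZIP transcription factor that accumulates in the nucleus when cells meet peroxides or other oxidants, where it activates genes for thioredoxins, peroxidases, glutathione synthesis and drug efflux. It binds short Yap1p response elements (YREs) upstream of these genes. A peroxidase partner, Hyr1p, and the adaptor Ybp1p activate Yap1p, and the exportin Crm1p returns it to the cytoplasm. Ethanol at a mild dose induces a broad program in yeast that includes heat shock proteins, trehalose and glycogen metabolism and antioxidant enzymes, and that represses the genes for making ribosomes. The question asked was which parts of this program depend on YAP1.

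The 16 libraries held 9393641 to 16689570 expected counts. YAP1 (YML007W) had 4, 2, 3 and 4 counts in yap1∆ cells after ethanol and 2, 2, 7 and 0 counts in unstressed yap1∆ cells, against 1600, 1839, 1992 and 1657 counts in WT cells after ethanol and 1199, 1155, 944 and 1156 counts in unstressed WT cells, so every library bore out its genotype label. Replicate 2 of the yap1∆ ethanol libraries had the lowest TMM factor (0.729) and the largest share of counts in its 10 most abundant genes (32.1%). Replicate 1 of the same group lay nearer to WT than its fellows for several genes named below. Without that library, an alternative chosen after seeing the data, 96 genes had a lower and 155 a higher response than in WT, and of the named genes KDX1 and EXG1 lost their call. The strain is a diploid, and 16 genes that mark haploid cells summed to 46.3 to 59.0 CPM in yap1∆ cells after ethanol and 27.4 to 29.9 CPM in unstressed yap1∆ cells, against 61.1 to 68.5 CPM in WT cells after ethanol and 25.7 to 34.0 CPM in unstressed WT cells. Of these genes 3 to 7 had at most 3 counts in every library of a group, and their part in the results was not tested. Levels are CPM, counts scaled to a common library size, on totals scaled by TMM, so a change in the total RNA of a cell, or in the number of cells of a kind, cannot be told apart from a change of level. Responses and differences are on the log2 scale.

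Ethanol changed about as many genes in yap1∆ cells as in WT cells. Of 5748 genes tested, 1693 were induced (29.5%) and 1671 repressed (29.1%) in yap1∆ cells, against 1646 induced (28.6%) and 1663 repressed (28.9%) in WT cells, where a call needed an adjusted p under 0.01 and a change of no less than 1.5-fold. The response itself differed between the genotypes for 192 genes (3.34%). It was lower in yap1∆ cells for 72 genes (1.25%) and higher for 120 genes (2.09%), tested as the genotype by treatment interaction with edgeR's quasi-likelihood F-test. Without replicate 3 these counts were 26 and 47, without replicate 4 they were 27 and 61, and they were 23 and 37 when the YPS606 wild type of the strain experiment stood in for WT. With only the 16 libraries fitted they were 37 and 65, and 23 named genes, listed in the closing sections, lost their call. Of 70 named called genes, 18 kept their call against that other wild type (AHP1, PRX1, GPX2, SAM3, OPT1, MET6, HXT7, RTN2, ISF1, GDB1, RPS24B, HSP78, SIS1, ERO1, DIA1, LYS2, SER3 and ZRT1), and the calls of the others were lost or, for NOG2, turned. The fit with that other wild type held only the yap1∆ and YPS606 ethanol and unstressed libraries and took its spread from them. A call lost there does not by itself mean a smaller difference. ALD3 lost its call at 3.62 (adjusted p = 0.0224), against 1.94 in the main fit. ARO10 lost its call at -1.17 (adjusted p = 0.106), against -2.14. All 72 genes with a lower response and 118 of the 120 with a higher one differed in the same direction in all 4 replicate pairs.

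**Figure D1:**
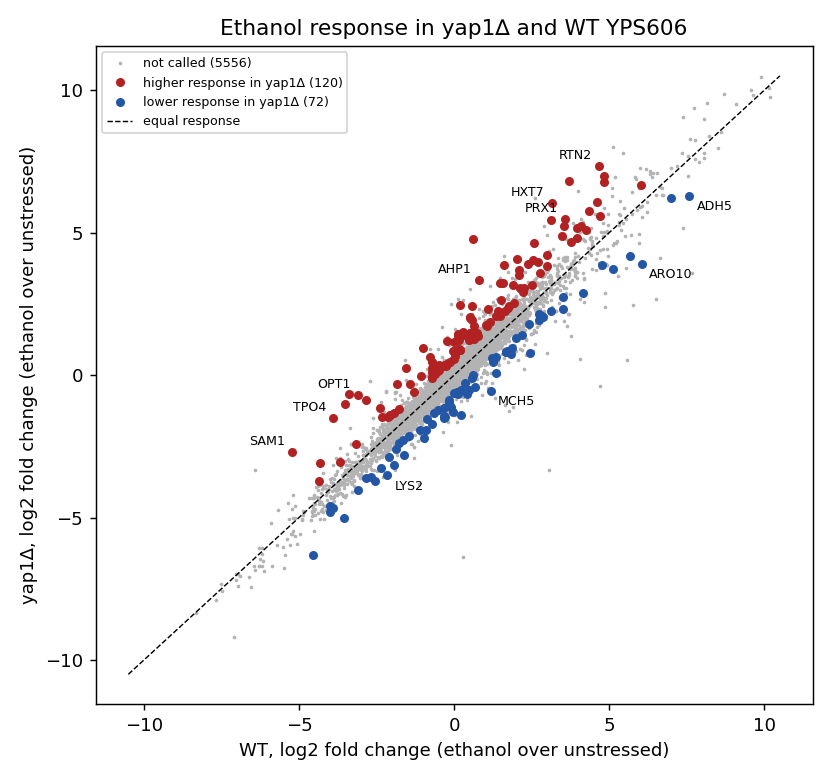
Ethanol response of 5748 genes in yap1∆ cells (vertical axis, log2 fold change) against WT cells (horizontal axis, log2 fold change), each the fitted value over 4 replicates. The 120 genes with a higher response in yap1∆ (red) lie above the line of equal response and the 72 with a lower one (blue) below it, while most genes follow the line.

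Among the 1646 genes that WT induced, 30 had defective induction in yap1∆ cells (1.82%) and 56 had amplified induction (3.40%). The order of these counts was not stable, with 16 defective and 7 amplified against the wild type of the strain experiment, 42 and 36 without replicate 2, 11 and 21 without replicate 3 and 10 and 30 without replicate 4. Among the 1663 that WT repressed, 32 had defective repression (1.92%) and 24 had amplified repression (1.44%). A further 18 genes with a lower and 32 with a higher response were not called in WT. A difference in response can stem from the level before ethanol, from the level after it, or from both, and the levels were therefore compared at each point in the same libraries. Of the 72 genes with a lower response, 27 were higher and 0 were lower in unstressed yap1∆ cells than in WT (1.11% and 1.01% of all genes tested), and 25 were lower and 0 were higher after ethanol (1.43% and 2.71% of all genes). Of the 120 with a higher response, 22 were lower and 3 were higher in unstressed yap1∆ cells, and 61 were higher and 8 were lower after ethanol. These counts come from the libraries that gave the responses and describe them without being separate evidence.

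The stretches of promoter below show the letters that Yap1p, the heat shock factor Hsf1p and the amino acid regulator Gcn4p are known to bind, for genes whose response differed and for TRR1, whose difference stayed under the 1.5-fold limit. They are from the S288c R64 genome, 5′ to 3′ in the direction of the gene, with up to 25 bases on either side of the match, which is in capitals. A YRE was searched as TTACTAA or TGACTAA, an Hsf1p element as GAANNTTCNNGAA or TTCNNGAANNTTC, a Gcn4p element as TGACTCA and a stress response element (STRE, the Msn2p and Msn4p site) as AGGGG, on both strands and in the 400 bases before the start codon. None of these motifs contains another. The YRE stretches belong to a glutathione peroxidase (GPX2), a glutaredoxin (GRX2), the first enzyme of glutathione synthesis (GSH1), a chaperone and glyoxalase (HSP31), a peroxiredoxin (TSA2) and thioredoxin reductase (TRR1).
GPX2, chrII:707243-707299, plus strand: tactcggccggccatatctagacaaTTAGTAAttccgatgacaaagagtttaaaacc
GRX2, chrIV:1470848-1470904, plus strand: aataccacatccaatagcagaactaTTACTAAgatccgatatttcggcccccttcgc
GSH1, chrX:236709-236756, minus strand: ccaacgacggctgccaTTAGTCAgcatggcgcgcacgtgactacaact
HSP31, chrIV:1502489-1502545, minus strand: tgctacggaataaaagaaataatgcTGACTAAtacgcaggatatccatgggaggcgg
TSA2, chrIV:1365929-1365985, minus strand: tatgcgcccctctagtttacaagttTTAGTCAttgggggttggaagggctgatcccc
TRR1, chrIV:1183082-1183138, plus strand: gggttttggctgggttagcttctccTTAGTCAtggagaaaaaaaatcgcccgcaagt
The Hsf1p stretches belong to 3 chaperone genes whose induction was defective.
HSP78, chrIV:974448-974515, minus strand: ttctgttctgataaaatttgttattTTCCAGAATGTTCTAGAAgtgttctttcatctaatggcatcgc
SIS1, chrXIV:619862-619934, minus strand: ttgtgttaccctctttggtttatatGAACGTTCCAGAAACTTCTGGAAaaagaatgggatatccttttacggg
AHA1, chrIV:892549-892611, plus strand: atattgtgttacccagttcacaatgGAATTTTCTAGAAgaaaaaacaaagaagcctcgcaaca
The Gcn4p stretches belong to genes of arginine (ARG1), lysine (LYS2) and histidine (HIS4) synthesis.
ARG1, chrXV:218841-218897, plus strand: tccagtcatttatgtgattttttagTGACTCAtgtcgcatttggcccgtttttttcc
LYS2, chrII:474089-474145, minus strand: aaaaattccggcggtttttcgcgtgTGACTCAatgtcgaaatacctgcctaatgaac
HIS4, chrIII:68501-68557, minus strand: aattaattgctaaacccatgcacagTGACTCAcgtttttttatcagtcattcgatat

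Over all 5547 tested genes with such a window, 14.6% held a YRE, 3.46% a Gcn4p element, 29.3% an STRE and 1.24% an Hsf1p element. Among the genes with a higher response in yap1∆ cells, 26 of 119 held a YRE (21.8%), 66 an STRE (55.5%), 2 a Gcn4p element (1.68%) and 3 an Hsf1p element (2.52%). Of the 22 of them that were also lower in unstressed yap1∆ cells, 8 held a YRE (36.4%). Among the 72 genes with a lower response, 12 held a YRE (16.7%), 16 a Gcn4p element (22.2%), 19 an STRE (26.4%) and 4 an Hsf1p element (5.56%). The windows of AHP1, PRX1 and TSA1 did not hold the letters of a YRE. A match describes the letters only.

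The peroxidase genes known as Yap1p targets were low before ethanol in yap1∆ cells, and ethanol still induced most of them there, from that lower level and more strongly than in WT. Of 34 tested genes on a list of Yap1p targets, 8 had a higher response and 0 a lower one. The median difference was 0.20 (0.11 to 0.25 when 2 genes near 0 counts were set to their bounds), against 0.01 over all genes. For this list and those below, 2.09% of all genes tested had a higher and 1.25% a lower response than in WT. Over all genes, 1.11% were higher and 1.01% lower in yap1∆ cells before ethanol, and 2.71% and 1.43% after it. Before ethanol, 14 of the 34 were lower and 0 were higher in yap1∆ cells, and after ethanol 10 were lower and 0 higher. Of 13 thioredoxin and peroxiredoxin genes, 5 had a higher response (median difference 0.68), 5 were lower before ethanol, and 3 were lower and 1 higher after it. The 9 oxidant defense genes that the study named as low before stress, chosen by it on these libraries and so no independent evidence, included 7 with a higher response.

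AHP1 (YLR109W) encodes a thiol peroxidase that reduces alkyl hydroperoxides. It had 2048, 2226, 1980.5 and 1997 CPM in yap1∆ cells after ethanol and 182, 176, 256 and 193 CPM in unstressed yap1∆ cells, against 3675, 3205, 2949 and 2963 CPM in WT cells after ethanol and 1863, 1856, 2033 and 1642 CPM in unstressed WT cells. The unstressed yap1∆ libraries lay lowest with no overlap, and the yap1∆ ethanol libraries overlapped unstressed WT and lay below every WT ethanol library. The response was 3.35 in yap1∆ cells and 0.79 in WT cells, a difference of 2.56 ± 0.17 (SE, adjusted p = 3.6e-15).

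PRX1 (YBL064C) encodes a mitochondrial peroxiredoxin, and it had 268, 274, 300.1 and 299 CPM in yap1∆ cells after ethanol and 5.77, 7.75, 6.73 and 5.30 CPM in unstressed yap1∆ cells, against 303, 269.8, 261 and 251 CPM in WT cells after ethanol and 23.1, 24.4, 22.4 and 21.7 CPM in unstressed WT cells. The low start in unstressed yap1∆ cells did not carry over, since the ethanol libraries of both genotypes overlapped (yap1∆ minus WT 0.08 ± 0.11 (SE, adjusted p = 0.699)). The difference in response was 1.90 ± 0.18 (SE, adjusted p = 1.55e-10). TSA1 (YML028W), the major cytosolic peroxiredoxin, had 2203, 3609, 2399 and 2538 CPM in yap1∆ cells after ethanol and 499.6, 505, 561 and 553 CPM in unstressed yap1∆ cells, against 4654, 4266, 3946 and 3982 CPM in WT cells after ethanol and 1875, 1831, 2264 and 1879 CPM in unstressed WT cells. Its level was lowest in unstressed yap1∆ cells and, after ethanol, lower in yap1∆ than in WT cells in every library, with a difference in response of 1.23 ± 0.16 (SE, adjusted p = 2.3e-07) and a difference after ethanol of -0.66 ± 0.11 (SE, adjusted p = 1.76e-05). The call after ethanol was lost without replicate 1 for both TSA1 and AHP1.

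TSA2 (YDR453C), a paralog of TSA1 whose reads RSEM may have had to share with it, was expressed at a low level. It had 5.01, 6.74, 9.78 and 7.67 CPM in yap1∆ cells after ethanol and 2.97, 2.97, 2.14 and 4.96 CPM in unstressed yap1∆ cells, against 6.11, 4.85, 3.57 and 3.57 CPM in WT cells after ethanol and 4.30, 5.06, 6.13 and 5.97 CPM in unstressed WT cells. Its yap1∆ ethanol libraries overlapped those of WT in both conditions, and its difference in response of 1.44 ± 0.34 (SE, adjusted p = 0.00424) was lost without replicate 2, 3 or 4. TRR1, thioredoxin reductase, differed by 0.57 ± 0.11 (SE, adjusted p = 0.000362), under the 1.5-fold limit. Its unstressed level was lower in yap1∆ cells (yap1∆ minus WT -0.75 ± 0.08 (SE, adjusted p = 8.38e-10)).

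**Figure D2:**
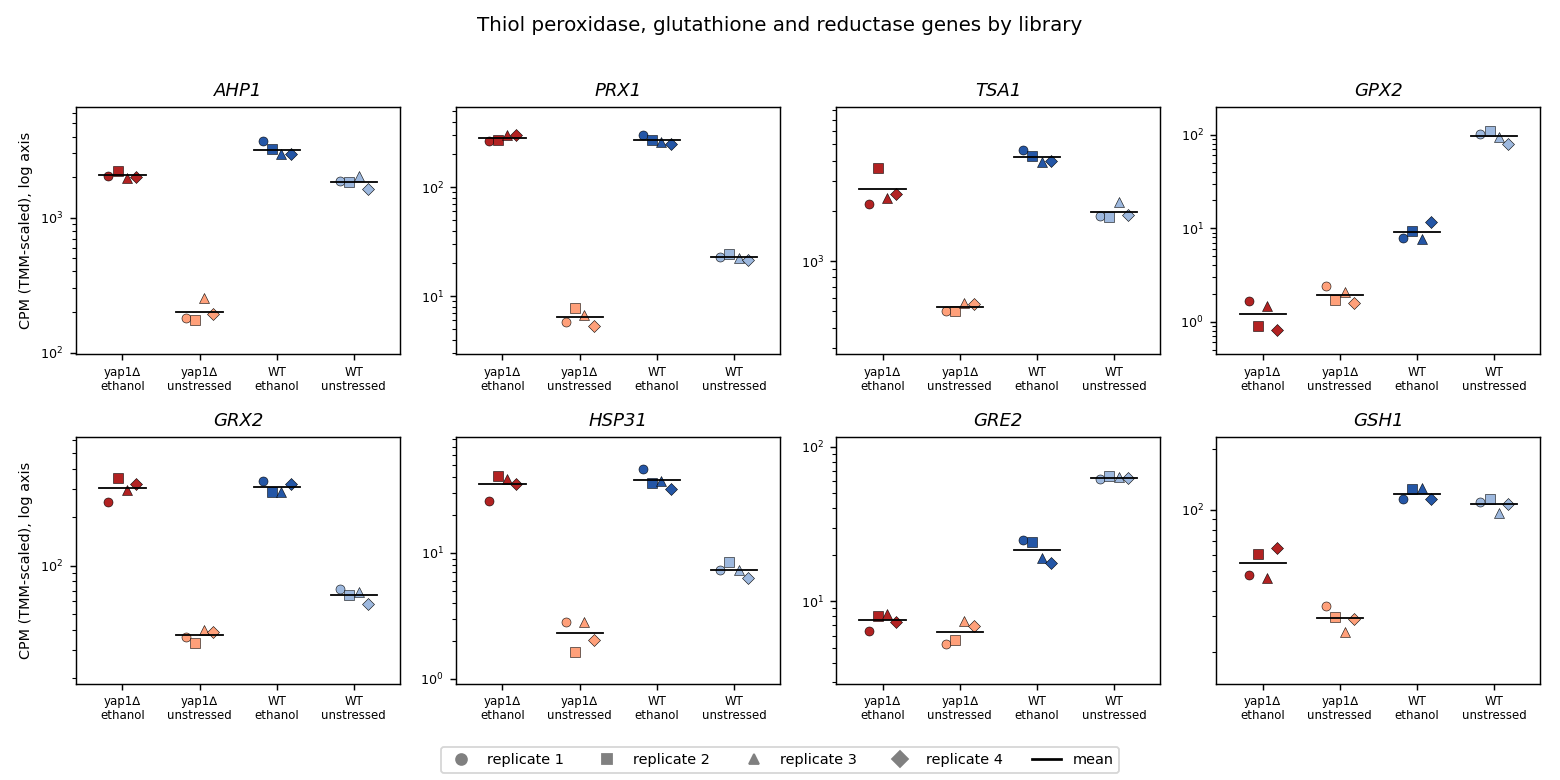
CPM (log axis) of 8 thiol peroxidase, glutathione and reductase genes in each of the 16 libraries, with marker shape giving the replicate and a bar the mean of 4. Unstressed yap1∆ libraries lie below unstressed WT libraries for all 8 genes. After ethanol PRX1, GRX2 and HSP31 overlap the WT ethanol libraries, while AHP1, TSA1, GPX2, GRE2 and GSH1 stay below them.

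GPX2 (YBR244W), a glutathione peroxidase, had a far lower level than WT before ethanol (yap1∆ minus WT -5.60 ± 0.17 (SE, adjusted p = 9.53e-29)). It had 1.67, 0.904, 1.47 and 0.812 CPM in yap1∆ cells after ethanol and 2.39, 1.72, 2.08 and 1.58 CPM in unstressed yap1∆ cells, against 7.92, 9.36, 7.74 and 11.8 CPM in WT cells after ethanol and 102, 109.8, 94.5 and 78.9 CPM in unstressed WT cells. WT cells repressed it, whereas the yap1∆ libraries were low in both conditions and below every WT library. The response was -0.67 in yap1∆ cells (adjusted p = 0.0163) and -3.39 in WT cells, a difference of 2.72 ± 0.31 (SE, adjusted p = 2.05e-08). Of the 23 tested glutathione genes, 4 had a higher response in yap1∆ cells and 0 a lower one (median difference 0.24, or 0.24 to 0.25 with 1 gene at its bounds).

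GSH1 (YJL101C), which catalyzes the committed step of glutathione synthesis, had 47.99, 60.4, 46.3 and 64.7 CPM in yap1∆ cells after ethanol and 33.8, 29.7, 25.1 and 28.9 CPM in unstressed yap1∆ cells, against 114, 126, 128 and 113 CPM in WT cells after ethanol and 109, 114, 96.2 and 107 CPM in unstressed WT cells. It was lower in yap1∆ cells in every library at both points (yap1∆ minus WT -1.86 before and -1.14 after ethanol), and ethanol raised it in yap1∆ cells (0.90 ± 0.10 (SE, adjusted p = 6.64e-11)) while the WT response was 0.18 ± 0.09 (SE, adjusted p = 0.0784). The difference in response was 0.72 ± 0.14 (SE, adjusted p = 0.00031), lost without replicate 4 and with only the 16 libraries fitted. GRX2 (YDR513W), the main glutaredoxin, had 248, 352, 294 and 322 CPM in yap1∆ cells after ethanol and 36.3, 33.3, 39.6 and 38.9 CPM in unstressed yap1∆ cells, against 337, 287.8, 286 and 319 CPM in WT cells after ethanol and 71.7, 65.9, 68.8 and 58.1 CPM in unstressed WT cells. Here the yap1∆ libraries started lower and overlapped WT after ethanol (difference in response 0.81 ± 0.15 (SE, adjusted p = 0.000264), lost without replicate 3).

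Of 6 genes for superoxide dismutases, their copper chaperone (CCS1), catalases and cytochrome c peroxidase (CCP1), only SOD2 was called. SOD2 (YHR008C), the mitochondrial superoxide dismutase, averaged 367 ± 57.9 CPM in yap1∆ cells after ethanol and 98.9 ± 5.38 CPM in unstressed yap1∆ cells, against 401 ± 19.0 CPM in WT cells after ethanol and 181 ± 15.7 CPM in unstressed WT cells (SD, n = 4 each), with a difference in response of 0.72 ± 0.12 (SE, adjusted p = 8.19e-05) that was lost without replicate 2. SOD1, the cytosolic enzyme, fell in both genotypes (response -0.90 in yap1∆ and -0.67 in WT cells, difference -0.23 ± 0.15 (SE, adjusted p = 0.359)) and was lower in yap1∆ cells at both points (yap1∆ minus WT -1.35 before and -1.58 after ethanol). The cytosolic catalase gene CTT1 had a response of 7.09 in yap1∆ cells and 6.52 in WT cells, a difference of 0.57 ± 0.29 (SE, adjusted p = 0.252) that did not pass the test. Its level after ethanol was higher in yap1∆ cells by 0.83 (adjusted p = 0.000162), a call lost without replicate 3.

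Of the oxidoreductase and drug transport genes with a higher response that are described next, only HSP31 was on the list of Yap1p targets. YCR102C, also on that list, was called higher too (2.26) and is not described further. HSP31 (YDR533C), which encodes a chaperone and methylglyoxal-detoxifying enzyme, had 26.1, 40.9, 38.5 and 35.2 CPM in yap1∆ cells after ethanol and 2.80, 1.64, 2.83 and 2.03 CPM in unstressed yap1∆ cells, against 46.8, 35.8, 37.2 and 32.4 CPM in WT cells after ethanol and 7.34, 8.41, 7.32 and 6.30 CPM in unstressed WT cells. Like PRX1 it was low before ethanol in yap1∆ cells and overlapped WT after it, with a difference in response of 1.505 ± 0.26 (SE, adjusted p = 6.91e-05). GRE2 (YOL151W), a methylglyoxal reductase, had 6.46, 8.05, 8.22 and 7.40 CPM in yap1∆ cells after ethanol and 5.28, 5.64, 7.42 and 6.88 CPM in unstressed yap1∆ cells, against 25.04, 24.4, 19.1 and 17.8 CPM in WT cells after ethanol and 62.5, 64.8, 63.5 and 62.6 CPM in unstressed WT cells. WT cells repressed it, the yap1∆ libraries were low in both conditions, and none of them reached the lowest WT library. The difference in response was 1.81 ± 0.20 (SE, adjusted p = 2.05e-08).

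Both GRE2 and GCY1 (YOR120W), a glycerol dehydrogenase of the aldo-keto reductase family, were called among 21 aldo-keto and old yellow enzyme genes, with 0 lower (median 0.05). GCY1 averaged 45.1 ± 8.26 CPM in yap1∆ cells after ethanol and 7.20 ± 0.862 CPM in unstressed yap1∆ cells, against 18.7 ± 2.53 CPM in WT cells after ethanol and 6.49 ± 0.984 CPM in unstressed WT cells (SD, n = 4 each). It was induced further in yap1∆ cells from a like start (1.11 ± 0.18 (SE, adjusted p = 4.24e-05)), a call lost without replicate 4. Of 22 drug transport genes, 2 had a higher response (9.09%, against 2.09% of all genes tested) and 0 a lower one (median 0.01). TPO4 (YOR273C), a polyamine exporter, averaged 11.5 ± 2.41 CPM in yap1∆ cells after ethanol and 32.6 ± 5.97 CPM in unstressed yap1∆ cells, against 6.66 ± 1.34 CPM in WT cells after ethanol and 99.7 ± 8.75 CPM in unstressed WT cells, and RSB1 (YOR049C), a sphingoid base transporter, averaged 78.9 ± 18.9 CPM in yap1∆ cells after ethanol and 50.9 ± 4.19 CPM in unstressed yap1∆ cells, against 49.5 ± 9.72 CPM in WT cells after ethanol and 86.0 ± 13.1 CPM in unstressed WT cells. The differences in response were 2.39 ± 0.22 (SE, adjusted p = 1.55e-10) for TPO4, which both genotypes repressed, and 1.42 ± 0.21 (SE, adjusted p = 8.15e-06) for RSB1, whose response was 0.63 in yap1∆ cells and -0.79 in WT cells. Against the wild type of the strain experiment both calls were lost, at 1.32 (adjusted p = 0.0378) for TPO4 and 0.55 (adjusted p = 0.462) for RSB1. The transporters on the list of Yap1p targets, FLR1, ATR1, SNQ2 and YCF1, were not called, with differences of -0.18 for ATR1 to 0.06 for FLR1.

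The lists of Yap1p partners and relatives were short. With 3.34% of all genes called, few calls or none would fall in lists of this size. None of 6 genes of the Yap1p activation and export pathway, YAP1 itself included, and none of 7 other YAP family genes was called. CRM1, the exportin, was induced by 0.75 in yap1∆ cells and by 0.71 in WT cells. CIN5, a YAP family factor, was induced by 4.74 in yap1∆ cells and 4.19 in WT cells (difference 0.54 ± 0.38 (SE, adjusted p = 0.424)).

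Sulfur amino acid genes, which supply cysteine for glutathione and S-adenosylmethionine for methylation, were another group with higher responses. Of 26 tested, 8 had a higher response in yap1∆ cells and 1 a lower one, with a median difference of 0.42 (0.33 to 0.42 with 1 gene at its bounds). Before ethanol 5 were higher and 0 lower in yap1∆ cells, and after it 11 were higher and 0 lower. SAM1 (YLR180W), an S-adenosylmethionine synthetase, had 114, 189, 178 and 258 CPM in yap1∆ cells after ethanol and 1091, 1159, 1198 and 1256 CPM in unstressed yap1∆ cells, against 37.2, 37.2, 25.4 and 32.0 CPM in WT cells after ethanol and 1192, 1075, 1431 and 1237 CPM in unstressed WT cells. Both genotypes repressed it, and every yap1∆ ethanol library stayed above every WT ethanol library, while the unstressed groups overlapped. The response was -2.69 in yap1∆ cells and -5.23 in WT cells, a difference of 2.54 ± 0.26 (SE, adjusted p = 2.59e-09). SAM1 and SAM2 are near-identical copies between which the counts may be divided unevenly, and SAM2, named outside the rule after its values were seen, was called higher too (1.12 ± 0.18 (SE, adjusted p = 2.03e-05)).

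SAM3 (YPL274W), a permease for S-adenosylmethionine, had 51.3, 127, 132 and 164 CPM in yap1∆ cells after ethanol and 181, 223, 230.3 and 219 CPM in unstressed yap1∆ cells, against 29.6, 29.97, 38.6 and 33.8 CPM in WT cells after ethanol and 211, 195, 301 and 231 CPM in unstressed WT cells. OPT1 (YJL212C), which imports glutathione and oligopeptides, had 62.6, 144, 118 and 167 CPM in yap1∆ cells after ethanol and 176, 199, 195 and 217 CPM in unstressed yap1∆ cells, against 26.9, 23.4, 25.5 and 29.0 CPM in WT cells after ethanol and 232, 187, 254 and 228 CPM in unstressed WT cells. In both genes yap1∆ replicate 1 was the lowest of the yap1∆ ethanol libraries yet above all WT ones, and the unstressed groups overlapped. The differences in response were 1.94 ± 0.25 (SE, adjusted p = 3.65e-07) for SAM3 and 2.40 ± 0.24 (SE, adjusted p = 1.41e-09) for OPT1. MHT1, a homocysteine methyltransferase, differed by 1.52 ± 0.32 (SE, adjusted p = 0.0012), a call lost without replicate 1 or 3. Likewise outside the rule, MET6 (methionine synthase, 1.54 ± 0.30 (SE, adjusted p = 0.000359)) and MET17 (homocysteine synthase, 1.36 ± 0.25 (SE, adjusted p = 0.000173)) were also called higher, MET6 not without replicate 2, 3 or 4 and MET17 not without replicate 3.

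Glucose transport and carbohydrate stress genes were also among the higher responses. HXT7 (YDR342C), a high-affinity hexose transporter nearly identical to HXT6, so that their counts are an estimated division, had 1619, 4653, 5378 and 5018 CPM in yap1∆ cells after ethanol and 56.0, 51.4, 70.5 and 71.1 CPM in unstressed yap1∆ cells, against 1063, 645, 639 and 538 CPM in WT cells after ethanol and 80.5, 72.3, 114 and 67.8 CPM in unstressed WT cells. Yap1∆ cells induced it beyond WT in every replicate, replicate 1 least, and the unstressed groups overlapped. The difference in response was 2.88 ± 0.39 (SE, adjusted p = 8.61e-07). HXT3 (YDR345C), a low-affinity transporter that WT cells repressed strongly, had 303, 715, 685 and 720.1 CPM in yap1∆ cells after ethanol and 1072, 1203, 1235 and 1294 CPM in unstressed yap1∆ cells, against 173, 134, 111 and 114 CPM in WT cells after ethanol and 1484, 1344, 1841 and 1538 CPM in unstressed WT cells. Here too the yap1∆ ethanol libraries stood above all WT ethanol libraries, with replicate 1 far below the other yap1∆ libraries (difference 2.49 ± 0.29 (SE, adjusted p = 2.39e-08)).

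MTH1 and ZNF1 act in the regulation of carbon use. MTH1 (YDR277C), which represses hexose transporter genes when glucose is low, had 38.5, 40.7, 54.5 and 56.5 CPM in yap1∆ cells after ethanol and 2.47, 4.85, 1.95 and 3.95 CPM in unstressed yap1∆ cells, against 21.5, 20.05, 18.9 and 16.9 CPM in WT cells after ethanol and 7.05, 6.70, 4.85 and 6.90 CPM in unstressed WT cells. Its unstressed yap1∆ libraries lay at or below the lowest WT one, and after ethanol yap1∆ was higher in every library, with a difference in response of 2.27 ± 0.27 (SE, adjusted p = 6.53e-08). ZNF1 (YFL052W), a zinc cluster factor of respiratory growth, averaged 58.3 ± 9.46 CPM in yap1∆ cells after ethanol and 0.478 ± 0.28 CPM in unstressed yap1∆ cells, against 31.1 ± 8.14 CPM in WT cells after ethanol and 1.10 ± 0.301 CPM in unstressed WT cells, and differed by 2.15 ± 0.52 (SE, adjusted p = 0.00456), a call lost without replicate 2 or 3 and under the newer quasi-likelihood method of edgeR.

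RTN2 (YDL204W), a reticulon-like protein of the endoplasmic reticulum, had 243, 501, 480.3 and 389.7 CPM in yap1∆ cells after ethanol and 3.22, 1.96, 2.01 and 3.05 CPM in unstressed yap1∆ cells, against 94.97, 65.1, 63.2 and 80.5 CPM in WT cells after ethanol and 2.52, 3.27, 3.41 and 2.88 CPM in unstressed WT cells. The unstressed libraries of the genotypes overlapped at a low level, and each yap1∆ ethanol library was above each WT ethanol library (difference in response 2.66 ± 0.35 (SE, adjusted p = 4.2e-07)). ALD3 (YMR169C), an aldehyde dehydrogenase that is close in sequence to its neighbor ALD2, averaged 489.9 ± 174 CPM in yap1∆ cells after ethanol and 4.54 ± 0.762 CPM in unstressed yap1∆ cells, against 156 ± 34.7 CPM in WT cells after ethanol and 5.57 ± 1.37 CPM in unstressed WT cells, and differed by 1.94 ± 0.30 (SE, adjusted p = 8.59e-06). UIP4, of the nuclear envelope, and ISF1, linked to respiratory RNA splicing, were barely detected before ethanol. UIP4 averaged 28.3 ± 9.99 CPM in yap1∆ cells after ethanol and 0.261 ± 0.24 CPM in unstressed yap1∆ cells, against 7.42 ± 1.61 CPM in WT cells after ethanol and 0.552 ± 0.348 CPM in unstressed WT cells. ISF1 averaged 22.3 ± 5.13 CPM in yap1∆ cells after ethanol and 0.491 ± 0.262 CPM in unstressed yap1∆ cells, against 6.67 ± 1.87 CPM in WT cells after ethanol and 0.763 ± 0.159 CPM in unstressed WT cells. Their differences were 3.09 ± 0.65 (SE, adjusted p = 0.00113) and 2.31 ± 0.47 (SE, adjusted p = 0.000792), and the call of UIP4 was lost without replicate 1, 3 or 4 and that of ISF1 without replicate 2, 3 or 4.

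**Figure D3:**
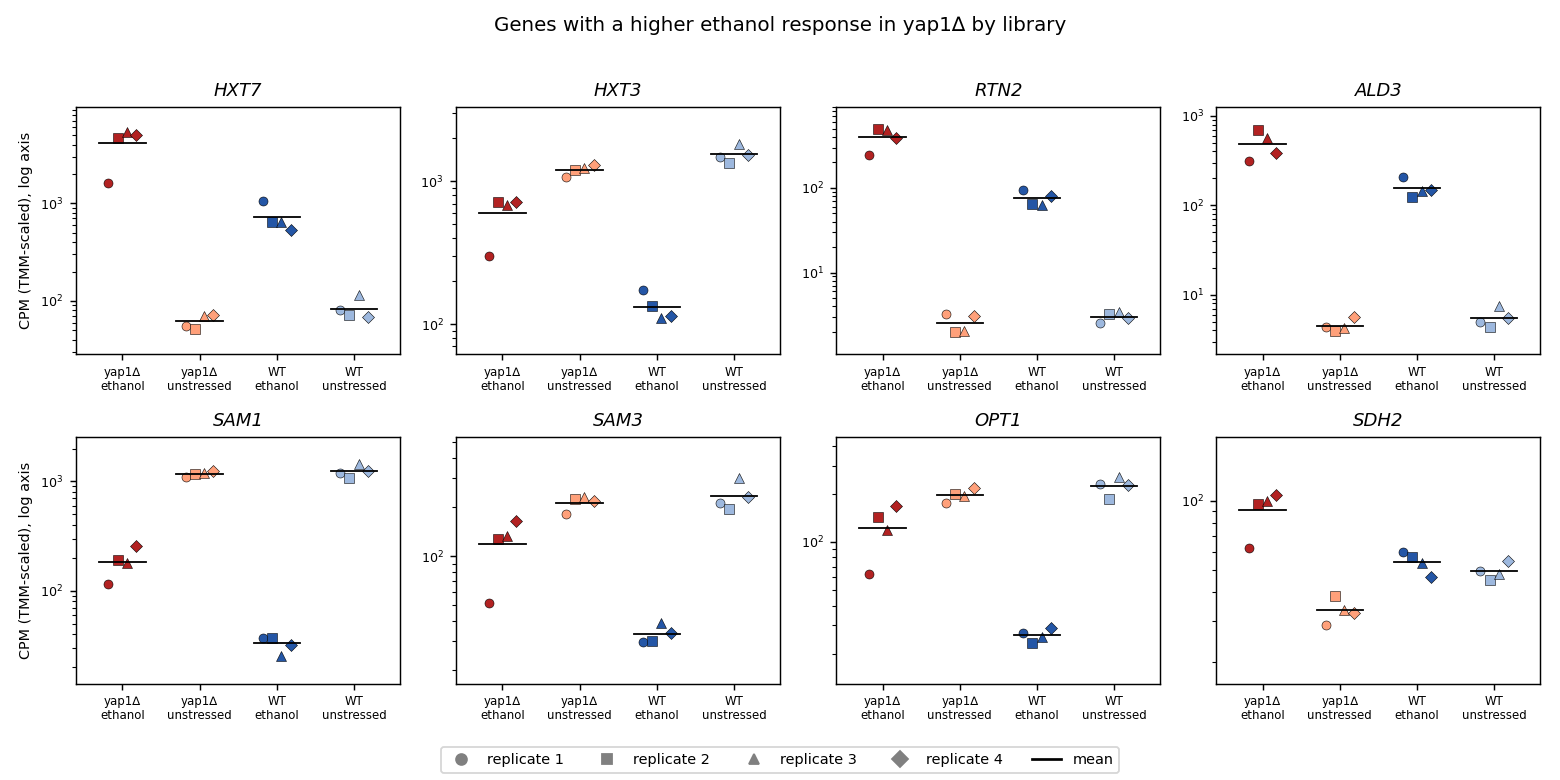
CPM (log axis) of 8 genes with a higher ethanol response in yap1∆, in each of the 16 libraries, with marker shape giving the replicate and a bar the mean of 4. The yap1∆ ethanol libraries lie above the WT ethanol libraries for all 8 genes, and replicate 1 (circles) is the lowest yap1∆ ethanol library in each.

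Of 28 stress protein genes, 4 had a higher response and 3 a lower one (median 0.34, or 0.34 to 0.73 with 3 genes at their bounds). After ethanol, 15 were higher and 0 lower in yap1∆ cells, where 2.71% and 1.43% of all genes were. DDR48 (YMR173W), a DNA damage responsive protein, averaged 66.7 ± 14.2 CPM in yap1∆ cells after ethanol and 1.83 ± 0.951 CPM in unstressed yap1∆ cells, against 84.3 ± 3.84 CPM in WT cells after ethanol and 7.26 ± 1.73 CPM in unstressed WT cells, and differed by 1.71 ± 0.36 (SE, adjusted p = 0.00102), a call lost without replicate 3. Storage carbohydrate genes were strongly induced in both genotypes. Of 13 glycogen genes, 12 were induced in each genotype, 2 had a higher response in yap1∆ cells (median 0.41) and 8 were higher after ethanol. Of 7 trehalose genes, all were induced in both genotypes, 1 had a higher response (median 0.42) and 2 were higher after ethanol.

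Glycogenin, which primes glycogen synthesis, is encoded by GLG1 (YKR058W). It averaged 77.1 ± 4.93 CPM in yap1∆ cells after ethanol and 4.89 ± 1.12 CPM in unstressed yap1∆ cells, against 32.4 ± 0.525 CPM in WT cells after ethanol and 4.94 ± 0.373 CPM in unstressed WT cells, with no overlap between the ethanol groups and a difference in response of 1.25 ± 0.17 (SE, adjusted p = 1.41e-06). GDB1 (YPR184W), the glycogen debranching enzyme, differed by 1.13 ± 0.21 (SE, adjusted p = 0.000282) and TPS2 (YDR074W), trehalose-6-phosphate phosphatase, by 0.81 ± 0.14 (SE, adjusted p = 0.000105), both lost without replicate 3.

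Succinate dehydrogenase and NADH dehydrogenase genes were among the respiration genes with a higher response. Of 38 tested, 6 had a higher response and 1 a lower one (median 0.39), and 20 were induced in yap1∆ cells against 14 in WT cells. SDH2 (YLL041C), the iron-sulfur subunit of succinate dehydrogenase, had 62.4, 96.5, 99.5 and 105 CPM in yap1∆ cells after ethanol and 28.9, 38.7, 33.7 and 32.4 CPM in unstressed yap1∆ cells, against 59.7, 56.7, 53.6 and 46.6 CPM in WT cells after ethanol and 49.2, 45.2, 48.2 and 54.8 CPM in unstressed WT cells. It lay below WT in every unstressed library and above WT in every ethanol library, with a difference in response of 1.302 ± 0.17 (SE, adjusted p = 4.2e-07). SDH1 (YKL148C), the flavoprotein subunit, differed by 1.18 ± 0.22 (SE, adjusted p = 0.000315), a call lost without replicate 3 or 4, and its yap1∆ ethanol replicate 1 lay below the WT range.

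Ribosomal protein genes were repressed in both genotypes, with a smaller median in yap1∆ cells. Of 138 tested genes picked by their names, RPP1 of RNase P among them, 131 were repressed in yap1∆ and 132 in WT cells. The median response was -1.29 in yap1∆ cells and -1.60 in WT cells, with a median difference of 0.32. Of these genes 6 were called higher (4.35%, against 2.09% of all genes tested) and 0 lower. RPS24B (YIL069C), a small subunit protein, averaged 271 ± 38.5 CPM in yap1∆ cells after ethanol and 752 ± 42.4 CPM in unstressed yap1∆ cells, against 174 ± 12.4 CPM in WT cells after ethanol and 874 ± 43.9 CPM in unstressed WT cells, and differed by 0.85 ± 0.15 (SE, adjusted p = 0.000105). RPL27B (0.65 ± 0.16 (SE, adjusted p = 0.00783)) and RPL8A (0.65 ± 0.14 (SE, adjusted p = 0.00112)) of the large subunit were called too, both lost without replicate 2, 3 or 4, and many of these genes have a near-identical copy. The 78 ribosome biogenesis genes were all repressed in both genotypes (median response -3.81 in yap1∆ and -3.67 in WT cells), and 1 was called, NOG2, a GTPase of large subunit assembly. NOG2 differed by -0.60 ± 0.15 (SE, adjusted p = 0.00719), a call lost without replicate 3 or 4, and by 0.59 in the opposite direction against the wild type of the strain experiment. None of 35 proteasome genes and none of 12 pentose phosphate genes was called, with medians of -0.21 and 0.26, where 3.34% of all genes were called.

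**Figure D4:**
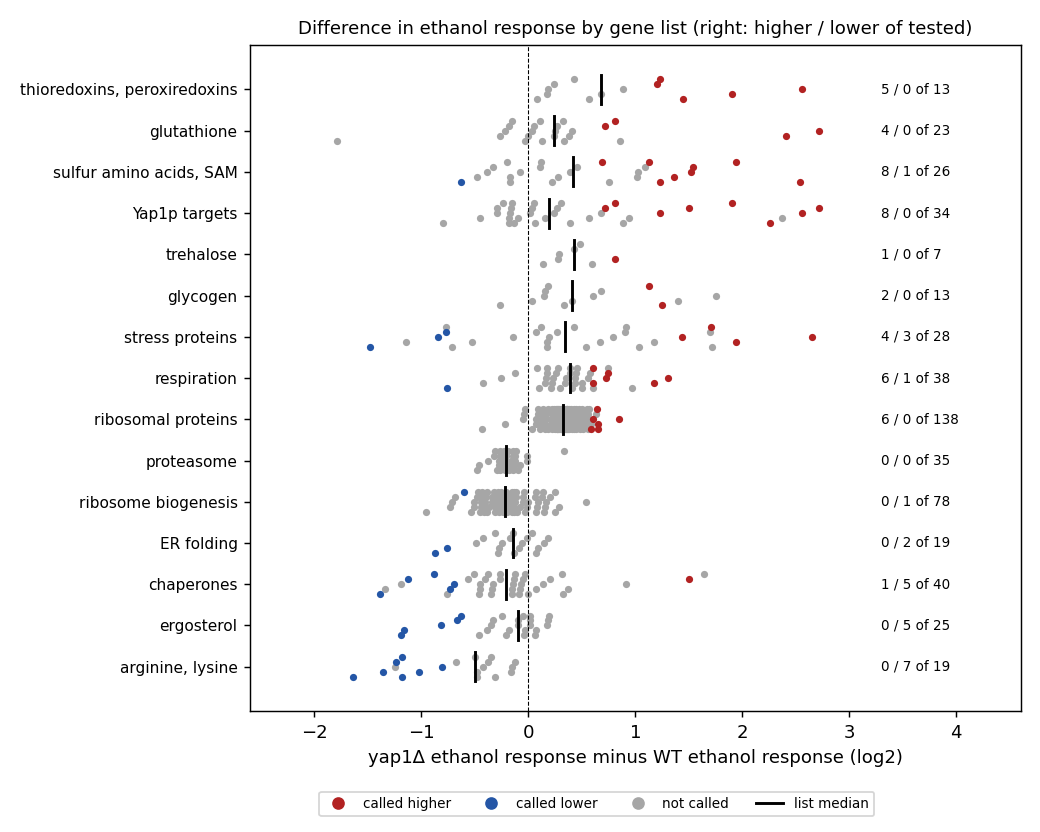
Difference in ethanol response, yap1∆ minus WT (horizontal axis, log2), for each tested gene of 15 lists (rows), with called genes in color, the list median as a bar and the counts called higher and lower at the right. Thioredoxin and peroxiredoxin, glutathione and sulfur genes lie mostly to the right of 0 and arginine and lysine genes to the left, while the called chaperone genes lie to the left with 1 exception.

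Genes for chaperones and oxidative folding were among those with defective induction. A list of 40 cytosolic and mitochondrial chaperone and cochaperone genes also held other stress genes, such as HSP12 and MBF1. Of the 40, 5 had a lower response in yap1∆ cells and 1 a higher one (HSP31). The median difference was -0.21 (-0.26 to -0.21 with 1 gene at its bounds), and the median response was 1.00 in yap1∆ cells against 1.58 in WT cells. Of 19 genes for folding in the endoplasmic reticulum, 2 had a lower response and 0 a higher one (median -0.15). Of 9 ethanol-induced genes on a list taken from the text of the study, which chose them on these libraries so that they are no independent evidence, 8 had a lower response and CTT1 was not called.

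HSP78 (YDR258C), the mitochondrial disaggregase, had 278, 159.9, 197 and 172 CPM in yap1∆ cells after ethanol and 18.6, 9.63, 17.4 and 14.9 CPM in unstressed yap1∆ cells, against 238, 357, 240.2 and 316 CPM in WT cells after ethanol and 8.08, 8.04, 9.54 and 7.84 CPM in unstressed WT cells. Both genotypes induced it, yap1∆ cells from a higher start in every library, and the ethanol groups overlapped. The response was 3.73 in yap1∆ cells and 5.12 in WT cells, a difference of -1.39 ± 0.22 (SE, adjusted p = 1.86e-05). SIS1 (YNL007C), a J-domain cochaperone of Hsp70, had 290.3, 157, 159 and 156 CPM in yap1∆ cells after ethanol and 136, 99.8, 117 and 104 CPM in unstressed yap1∆ cells, against 312, 404, 272 and 328 CPM in WT cells after ethanol and 102, 94.8, 93.8 and 77.2 CPM in unstressed WT cells. Replicates 2, 3 and 4 of the yap1∆ ethanol libraries lay together far below WT, and replicate 1 lay within the WT range (difference -1.12 ± 0.20 (SE, adjusted p = 0.000174), lost without replicate 4).

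AHA1 (YDR214W), which activates the Hsp90 ATPase, averaged 348 ± 56.6 CPM in yap1∆ cells after ethanol and 142 ± 18.8 CPM in unstressed yap1∆ cells, against 435 ± 9.92 CPM in WT cells after ethanol and 109.9 ± 9.38 CPM in unstressed WT cells, a difference in response of -0.70 ± 0.13 (SE, adjusted p = 0.000174) that was lost without replicate 1 or 3. ERO1 (YML130C), the thiol oxidase that drives disulfide formation in the endoplasmic reticulum, had 785, 569.6, 422 and 405 CPM in yap1∆ cells after ethanol and 117, 103, 118 and 114 CPM in unstressed yap1∆ cells, against 897, 1114, 943 and 1062 CPM in WT cells after ethanol and 109.8, 124, 114 and 109 CPM in unstressed WT cells. Unstressed levels overlapped, and every yap1∆ ethanol library was below every WT one, with replicate 1 the nearest. The difference was -0.88 ± 0.16 (SE, adjusted p = 0.000245), lost without replicate 3 or 4. EUG1, a disulfide isomerase, differed by -0.76 ± 0.13 (SE, adjusted p = 6.85e-05) with a higher unstressed level (0.75 ± 0.09 (SE, adjusted p = 1.01e-07)) with no difference detected after ethanol (-0.01 ± 0.09 (SE, adjusted p = 0.971)), and its call was lost without replicate 3 or 4.

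Some stress-induced genes, HOR7 and ADH5, started higher in yap1∆ cells and overlapped WT after ethanol. HOR7 (YMR251W-A), a small hyperosmolarity responsive protein, had 429, 447, 601 and 614 CPM in yap1∆ cells after ethanol and 24.3, 21.5, 36.6 and 32.3 CPM in unstressed yap1∆ cells, against 483, 364, 555 and 463 CPM in WT cells after ethanol and 8.23, 5.13, 12.5 and 11.3 CPM in unstressed WT cells. Its unstressed yap1∆ libraries were above every WT one, the ethanol groups overlapped, and the difference in response was -1.48 ± 0.22 (SE, adjusted p = 4.49e-06). ADH5 (YBR145W), an alcohol dehydrogenase isozyme, had 998, 1946, 1162 and 1296 CPM in yap1∆ cells after ethanol and 16.5, 17.4, 16.1 and 18.5 CPM in unstressed yap1∆ cells, against 1738, 1346, 1448 and 1501 CPM in WT cells after ethanol and 7.79, 8.71, 7.49 and 7.71 CPM in unstressed WT cells. It showed the same arrangement, with a difference of -1.28 ± 0.21 (SE, adjusted p = 4.77e-05). Other genes with a lower response, their levels not described here, were EMI2, a glucokinase-like protein (-0.77 ± 0.18 (SE, adjusted p = 0.00411), lost without replicate 1, 3 or 4), WTM1, a transcriptional modulator (-0.85 ± 0.16 (SE, adjusted p = 0.000282), lost without replicate 4), and ADH3, the mitochondrial alcohol dehydrogenase (-0.63 ± 0.13 (SE, adjusted p = 0.00105), lost without replicate 1, 3 or 4). Of 21 glycolysis and fermentation genes, ADH3 and ADH5 were the 2 called, and 20 were induced in each genotype. Of the 21, 1 was higher in unstressed yap1∆ cells than in WT.

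**Figure D5:**
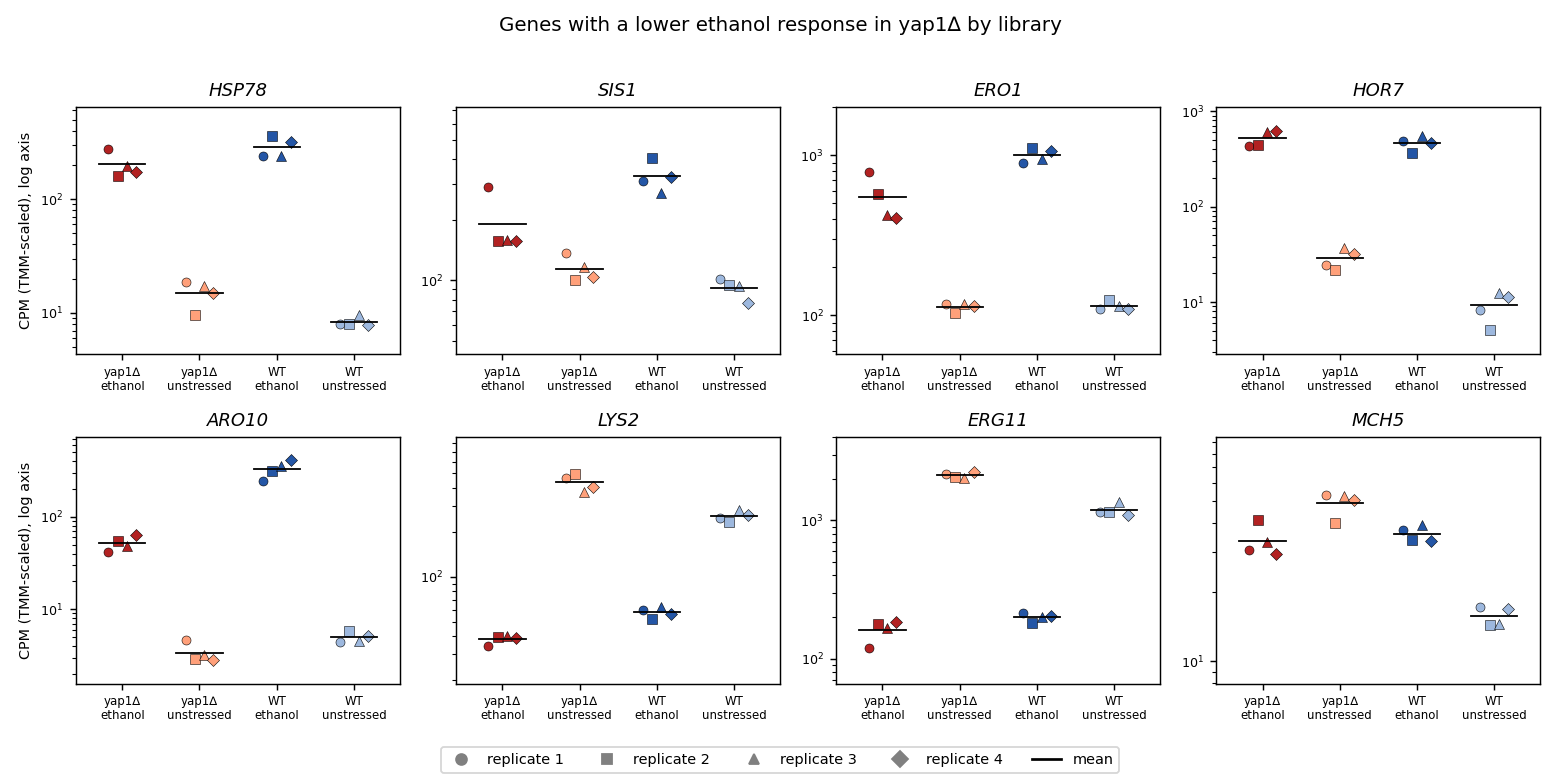
CPM (log axis) of 8 genes with a lower ethanol response in yap1∆, in each of the 16 libraries, with marker shape giving the replicate and a bar the mean of 4. Unstressed yap1∆ libraries lie above unstressed WT libraries for HSP78, HOR7, LYS2, ERG11 and MCH5, and yap1∆ ethanol libraries lie below WT ethanol libraries for ERO1, ARO10 and LYS2.

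Many genes of arginine and lysine synthesis started higher in yap1∆ cells and had a lower response there. Of 19 tested, 7 had a lower response and 0 a higher one, with a median difference of -0.50 and a median response of -0.90 in yap1∆ cells against -0.31 in WT cells. Before ethanol 9 were higher and 0 lower in yap1∆ cells, and after it 3 were lower and 0 higher.

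LYS2 (YBR115C), the aminoadipate reductase of lysine synthesis, had 34.3, 39.4, 39.8 and 39.0 CPM in yap1∆ cells after ethanol and 468, 492, 376 and 402 CPM in unstressed yap1∆ cells, against 59.6, 52.2, 62.8 and 56.3 CPM in WT cells after ethanol and 249, 234, 282 and 261 CPM in unstressed WT cells. Both genotypes repressed it, and the yap1∆ libraries lay above every WT library before ethanol and below every one after it, with a difference of -1.36 ± 0.17 (SE, adjusted p = 1.85e-07). ARG1 (YOL058W), argininosuccinate synthetase, averaged 7.81 ± 2.15 CPM in yap1∆ cells after ethanol and 35.9 ± 1.95 CPM in unstressed yap1∆ cells, against 9.43 ± 1.78 CPM in WT cells after ethanol and 18.6 ± 2.18 CPM in unstressed WT cells, and differed by -1.24 ± 0.21 (SE, adjusted p = 6.91e-05). Of 32 genes for branched-chain, aromatic amino acid and histidine metabolism, 2 had a lower response and 0 a higher one (median -0.16). HIS4, of histidine synthesis, differed by -0.87 ± 0.19 (SE, adjusted p = 0.00195), lost without replicate 1, 3 or 4.

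A large lower response was that of ARO10 (YDR380W), phenylpyruvate decarboxylase of aromatic amino acid breakdown. It had 41.2, 55.4, 48.6 and 63.2 CPM in yap1∆ cells after ethanol and 4.62, 2.90, 3.21 and 2.82 CPM in unstressed yap1∆ cells, against 244, 313, 357 and 410.0 CPM in WT cells after ethanol and 4.45, 5.88, 4.51 and 5.09 CPM in unstressed WT cells. Unstressed levels overlapped, and all yap1∆ ethanol libraries were far below all WT ones, although both genotypes induced the gene. The difference was -2.14 ± 0.32 (SE, adjusted p = 8.15e-06). ARO9 (YHR137W), the aromatic aminotransferase of the same route, averaged 109.8 ± 25.2 CPM in yap1∆ cells after ethanol and 14.9 ± 2.26 CPM in unstressed yap1∆ cells, against 387 ± 33.0 CPM in WT cells after ethanol and 21.5 ± 1.56 CPM in unstressed WT cells, and differed by -1.29 ± 0.20 (SE, adjusted p = 1.02e-05). Against the wild type of the strain experiment both calls were lost, at -1.17 (adjusted p = 0.106) for ARO10 and -0.66 (adjusted p = 0.195) for ARO9. Of 25 other amino acid genes, 2 had a lower response (ASN1, asparagine synthetase, -0.85 ± 0.16 (SE, adjusted p = 0.000374), and SER3, of serine synthesis, -0.91 ± 0.20 (SE, adjusted p = 0.00184), the call of SER3 lost without replicate 3 or 4) and 1 a higher one (CAR1, arginase, 0.74 ± 0.15 (SE, adjusted p = 0.000691), lost without replicate 3 or 4).

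Ergosterol genes were repressed in both genotypes, 18 of 25 in yap1∆ cells and 17 in WT cells. Of the 25, 5 had a lower response and 0 a higher one (median -0.10), and 3 were higher before ethanol. ERG11 (YHR007C), lanosterol demethylase, had 119, 178, 168 and 183 CPM in yap1∆ cells after ethanol and 2175, 2077, 2034 and 2249 CPM in unstressed yap1∆ cells, against 216, 182, 199 and 204 CPM in WT cells after ethanol and 1150.3, 1151, 1356 and 1093 CPM in unstressed WT cells. The unstressed yap1∆ libraries were above every WT one, the ethanol groups overlapped at 1 library, and the difference was -1.16 ± 0.15 (SE, adjusted p = 3.65e-07). ERG1 (YGR175C), squalene epoxidase, averaged 226 ± 36.8 CPM in yap1∆ cells after ethanol and 1583 ± 65.7 CPM in unstressed yap1∆ cells, against 286 ± 20.7 CPM in WT cells after ethanol and 883 ± 73.9 CPM in unstressed WT cells, and differed by -1.19 ± 0.14 (SE, adjusted p = 2.39e-08). ERG3, a sterol desaturase, differed by -0.82 ± 0.18 (SE, adjusted p = 0.00188) with a lower level after ethanol (-0.71 ± 0.13 (SE, adjusted p = 0.0001)), and its call was lost without replicate 1, 3 or 4.

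Of 29 iron uptake and use genes, 3 had a lower response (10.3%, against 1.25% of all genes tested) and 0 a higher one (median -0.15). FTR1 (YER145C), the plasma membrane iron permease, averaged 50.7 ± 8.57 CPM in yap1∆ cells after ethanol and 483 ± 71.7 CPM in unstressed yap1∆ cells, against 92.0 ± 11.6 CPM in WT cells after ethanol and 474 ± 48.1 CPM in unstressed WT cells, and differed by -0.88 ± 0.17 (SE, adjusted p = 0.000338), lost without replicate 1 or 4. FRE2, a ferric reductase (-1.07 ± 0.25 (SE, adjusted p = 0.00363)), and SMF3, a vacuolar iron transporter (-0.76 ± 0.19 (SE, adjusted p = 0.00533)), were called and lost without replicate 1, 3 or 4. ZRT1 (YGL255W), the high-affinity zinc transporter, had 8.64, 11.8, 9.39 and 10.6 CPM in yap1∆ cells after ethanol and 24.3, 22.5, 28.3 and 32.6 CPM in unstressed yap1∆ cells, against 11.2, 12.5, 10.3 and 15.8 CPM in WT cells after ethanol and 9.57, 10.7, 12.5 and 9.99 CPM in unstressed WT cells. It was higher in unstressed yap1∆ cells than in any other group and was repressed in yap1∆ cells (-1.41 ± 0.17 (SE, adjusted p = 3.13e-10)), while the WT response was 0.22 ± 0.17 (SE, adjusted p = 0.237), with a difference of -1.63 ± 0.24 (SE, adjusted p = 4.83e-06).

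MCH5 (YOR306C), a riboflavin transporter, had 30.6, 41.2, 33.0 and 29.3 CPM in yap1∆ cells after ethanol and 52.9, 39.8, 52.6 and 50.3 CPM in unstressed yap1∆ cells, against 37.1, 33.6, 39.2 and 33.4 CPM in WT cells after ethanol and 17.3, 14.4, 14.6 and 16.8 CPM in unstressed WT cells. The unstressed yap1∆ libraries were above every WT library, the ethanol groups overlapped, and the response was -0.54 in yap1∆ cells and 1.18 in WT cells, a difference of -1.72 ± 0.16 (SE, adjusted p = 1.14e-10). Of 17 stress transcription factor genes, 2 had a lower response and 0 a higher one (median -0.13). PDR1 (YGL013C), the regulator of multidrug resistance, averaged 41.8 ± 3.91 CPM in yap1∆ cells after ethanol and 67.2 ± 4.55 CPM in unstressed yap1∆ cells, against 63.6 ± 8.63 CPM in WT cells after ethanol and 58.6 ± 2.91 CPM in unstressed WT cells, and differed by -0.80 ± 0.13 (SE, adjusted p = 1.82e-05). HAP1, the heme-responsive factor, differed by -0.77 ± 0.14 (SE, adjusted p = 0.000108), a call lost without replicate 3.

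The calls of 4 more genes with a lower response depended on single replicates. RRN11, of the RNA polymerase I initiation factor, differed by -1.46 ± 0.36 (SE, adjusted p = 0.00629) (lost without replicate 2, 3 or 4, without the yap1∆ ethanol library of replicate 2 alone, and with a block by culture), DIA1, of invasive growth, by -1.27 ± 0.25 (SE, adjusted p = 0.000384) (lost without replicate 3 or 4), KDX1, a protein kinase, by -1.24 ± 0.29 (SE, adjusted p = 0.00332) (lost without replicate 1, 3 or 4) and EXG1, the 1 called gene of 36 for the cell wall, an exoglucanase, by -0.59 ± 0.12 (SE, adjusted p = 0.000878) (lost without replicate 1, 3 or 4). None of 8 haploid and 9 meiosis genes that were tested was called, where 3.34% of all genes were called.

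The strongest responses of all were shared by the genotypes. RGI1, a respiratory growth protein, averaged 2477 ± 392 CPM in yap1∆ cells after ethanol and 1.81 ± 0.618 CPM in unstressed yap1∆ cells, against 1843 ± 231 CPM in WT cells after ethanol and 1.95 ± 0.279 CPM in unstressed WT cells, a response of 10.44 in yap1∆ cells and 9.89 in WT cells. TDH1, a glyceraldehyde-3-phosphate dehydrogenase, responded by 10.06 in yap1∆ cells and 10.13 in WT cells, and GPM2, a phosphoglycerate mutase paralog, by 9.77 and 10.19 in the same order. Among the most repressed genes were AAH1, adenine deaminase (-8.34 in yap1∆ cells, -8.31 in WT cells), HXT1, a low-affinity hexose transporter (-7.89 and -7.66 in that order), INA1 (-7.58 and -7.48) and FRE4, a ferric reductase (-7.42 and -6.55). None of these 7 differed in response at the threshold, with adjusted p-values from 0.0468 for FRE4 to 0.976 for AAH1.

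The experiment also held skn7∆ cells, which lack another regulator of oxidant defense genes, and msn2∆ msn4∆ cells, which lack the general stress factors, with 4 ethanol and 4 unstressed libraries each. The response of yap1∆ cells was lower than that of skn7∆ cells for 67 genes (1.17%) and higher for 152 (2.64%), 98 in all without replicate 2, 102 without replicate 3 and 129 without replicate 4. It was lower than that of msn2∆ msn4∆ cells for 467 genes (8.12%) and higher for 665 (11.6%). These comparisons share the yap1∆ libraries with those above, so the values stand side by side and are no separate evidence.

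Peroxidase and sulfur genes and Yap1p targets were also set against the skn7∆ response. Over all genes tested, 2.64% were higher and 1.17% lower in yap1∆ than in skn7∆ cells. Of 13 thioredoxin and peroxiredoxin genes 1 was higher in yap1∆ cells and 0 were lower, of 26 sulfur genes 1 and 0, of 23 glutathione genes 2 and 0, and of 34 Yap1p targets 6 and 0. AHP1 responded by 3.35 in yap1∆ cells against 3.05 in skn7∆ cells, a difference with a 95% interval of -0.03 to 0.63, and by -0.12 in msn2∆ msn4∆ cells. PRX1 responded by 5.47 against 5.28 (interval of the difference -0.19 to 0.57), and GPX2 by -0.67 against -0.77 (-0.58 to 0.78). For SAM1 the responses were -2.69 in yap1∆ and -2.56 in skn7∆ cells (-0.65 to 0.37), and for OPT1 -0.70 and -0.79 in the same order (-0.38 to 0.56). None of these 5 passed the test, and the intervals leave room for differences of up to their bounds.

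Glucose and stress genes did differ between these deletions. HXT7 responded by 6.04 in yap1∆ cells, 2.08 in skn7∆ cells and -2.67 in msn2∆ msn4∆ cells, HXT3 by -1.02, -3.69 and -5.95, and RTN2 by 7.32, 3.88 and 1.20, in the same order. The response of yap1∆ minus that of skn7∆ cells was 3.96 ± 0.39 (SE, adjusted p = 7.26e-10) for HXT7, 2.68 ± 0.29 (SE, adjusted p = 5.15e-09) for HXT3, 3.44 ± 0.36 (SE, adjusted p = 5.07e-09) for RTN2 and 2.80 ± 0.32 (SE, adjusted p = 2.07e-08) for ALD3. Of the 28 stress protein genes 13 were higher and 0 lower than in skn7∆ cells, of the 13 glycogen genes 7 and 0, and of the 7 trehalose genes 6 and 0. HSP78 responded by 3.73 in yap1∆ cells and 3.34 in skn7∆ cells (interval of the difference -0.03 to 0.83), and by 0.63 in msn2∆ msn4∆ cells. Of the 19 arginine and lysine genes, 13 responded less in yap1∆ than in msn2∆ msn4∆ cells (median difference -1.12), and 0 were called between yap1∆ and skn7∆ cells (median 0.01).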

How the data were processed

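Polyadenylated RNA was sequenced as single-end reads from cultures grown and stressed in parallel, and the libraries of each replicate were made in a random block and run on 1 lane. The authors deposited RSEM expected counts for each gene, with no normalization. Per the submitters' processing notes and the study's methods, trimmed reads were mapped with STAR 2.6.1 to strain references derived from S288c R64 before RSEM 1.3.1 was run. All 119 columns of the table were mapped to samples by name.

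Expected counts were rounded to whole numbers and fitted in R 4.3.3 with edgeR 4.0.16 (TMM, quasi-likelihood F-test by the method of edgeR 3) over the 48 libraries of the mutant experiment, with genotype and treatment as 1 factor and replicate as a block, as in the methods of the study. Genes whose mean reached 1 CPM in any group were kept, 5748 of 6685. Adjusted p-values are Benjamini-Hochberg values over all genes tested, and calls needed an adjusted p under 0.01 and a change of no less than 1.5-fold. The fit used a prior count of 0.125. P-values rest on a spread between cultures, handled in these blocks, that was estimated over all 48 libraries. These include skn7∆, msn2∆ msn4∆ and NaCl-treated cells, so the spread is not that of the 16 libraries alone. The yap1∆ ethanol libraries agreed least with each other, at a mean correlation within the group of 0.978 to 0.985. The other groups of the contrast had 0.989 to 0.991. The block follows the study's methods. Libraries of 1 culture share the replicate number, and their deviations from the group means correlated at 0.094 within a culture, at 0.048 between genotypes of the same number and at -0.021 otherwise. No replicate pair agreed within sampling noise (chi-square per degree of freedom 7.31 to 146.9).

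The genes named were YAP1, the 12 largest called differences in each direction with the same sign in all 4 pairs and 50 or more mean counts in the highest group, up to 3 called members of each gene list or else its 2 most abundant, the genes of 2 lists taken from the study, and the 5 most induced and 5 most repressed genes. Some genes that the rule names are not reported here. Members and lists were chosen with earlier results of these data known. RefSeq's R64 annotation matched 6006 genes and gave symbols and promoter windows. Figures were drawn with matplotlib. Alternatives tried were other normalizations, tests, filters, thresholds, block designs, sets of libraries and the YPS606 libraries of the strain experiment as WT. DESeq2 1.42.0 served as 1 of them.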

Additional observations from a re-analysis of the deposited data

Results flagged for a closer look

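Among 112 groups of 4 values tested, 7 held a library far from its fellows, where chance gives about 1 in 20. Replicate 1 of the yap1∆ ethanol libraries was lowest for HXT3 (302.7 CPM) and LYS2 (34.3 CPM) and highest for DIA1 (15.5 CPM). Replicate 2 of the same group was lowest for RRN11 (0.0822 CPM), and replicate 3 of unstressed yap1∆ cells was lowest for ZNF1 (0.0629 CPM). In unstressed WT cells, replicate 3 was highest for HSP78 (9.54 CPM) and lowest for MTH1 (4.85 CPM).

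The 12 genes with the largest differences from WT in each direction were also set against skn7∆ cells. By the edgeR test of the difference itself, the ethanol response of yap1∆ cells differed for 7 of them. Over all genes tested, 2.64% were higher and 1.17% lower than in skn7∆ cells. The genes were picked on the same yap1∆ libraries, so the counts are no separate evidence. The differences, yap1∆ minus skn7∆ on the log2 scale, were 0.70 ± 0.15 (SE, adjusted p = 0.00137) for MCH5, 0.84 ± 0.20 (SE, adjusted p = 0.00471) for ADH5, 1.46 ± 0.27 (SE, adjusted p = 0.000195) for MTH1, 2.68 ± 0.29 (SE, adjusted p = 5.15e-09) for HXT3, 3.44 ± 0.36 (SE, adjusted p = 5.07e-09) for RTN2, 3.96 ± 0.39 (SE, adjusted p = 7.26e-10) for HXT7 and 2.77 ± 0.70 (SE, adjusted p = 0.00734) for UIP4. All 7 responses were higher in yap1∆ cells than in skn7∆ cells, although MCH5 and ADH5 responded less in yap1∆ than in WT cells.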

How the results depend on the processing

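The counts of calls depended on which replicate was left out, on the libraries fitted and on the WT libraries used. Leaving out each replicate in turn gave 26 to 81 genes with a lower response, 47 to 138 with a higher one, 10 to 42 with defective and 21 to 66 with amplified induction, 14 to 42 with defective and 11 to 25 with amplified repression, and 98 to 158 that differed from skn7∆ cells. It gave 1638 to 1704 genes induced and 1625 to 1644 repressed in yap1∆ cells, 95 to 112 that differed unstressed, 162 to 304 after ethanol and 944 to 1047 from msn2∆ msn4∆ cells. With only the 16 libraries fitted, 37 genes had a lower and 65 a higher response, with 15 and 33 for defective and amplified induction and 19 and 14 for defective and amplified repression. In that fit 23 named genes lost their call. With a lower response these were ADH3, AHA1, DIA1, EMI2, ERG3, ERO1, EUG1, EXG1, FRE2, KDX1, NOG2, RRN11, SMF3 and WTM1. With a higher response they were CAR1, GCY1, GSH1, MET6, RPL27B, RPL8A, TSA2, UIP4 and ZNF1. Against the YPS606 libraries of the strain experiment, with the replicate block in each experiment, 23 genes had a lower and 37 a higher response, with 16 for defective and 7 for amplified induction and 4 for amplified repression. Here 28 of the 192 genes stayed called in the same direction and 5 changed sign, NOG2 (0.59) among them, and of 70 named called genes 18 kept their call. At a false discovery rate of 0.05 the counts were 121 lower, 181 higher, 47 for defective induction, 42 for amplified repression and 342 against skn7∆ cells. Without the fold limit, 206 genes differed unstressed and 465 after ethanol. The total called was 203 without replicate 1, 167 without replicate 2, 73 without replicate 3 and 88 without replicate 4. These fits dropped 1 replicate each, so the number of replicates does not set them apart. Looser limits change the counts by construction, and otherwise the cause was not tested. The fit of the 16 libraries kept every replicate of the contrast and estimated the spread from those libraries only. The fit against the strain experiment likewise took its spread from its own libraries, without the rest of the mutant experiment.

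Without the replicate block 184 genes were called in all, which ended no call of a named gene, and with a block by culture 205, which ended that of RRN11. DESeq2 called 235. Of the 70 named called genes, 33 kept their call without each replicate in turn. Added after seeing the data, leaving out the yap1∆ ethanol library of replicate 1 gave 96 genes with a lower and 155 with a higher response, 72 with amplified induction and 265 that differed from skn7∆ cells, and leaving out that of replicate 2 gave 105 and 137, with 48 for defective induction and 32 for amplified repression. Depth was 9393641 counts or more in each library, so low genes such as UIP4, ZNF1 and RRN11 rested on few counts before or after ethanol.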

Other observations

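Some further groups of genes were described after their values were seen, and carry no test. Of 17 hexose transporter and glucose sensing genes, 5 had a higher response in yap1∆ cells (HXT2, HXT3, HXT4, HXT7 and MTH1) and 0 a lower one, with a median difference of 0.77 (0.30 to 0.91 with 2 genes at their bounds), and 6 were higher and 0 lower after ethanol. Several of these genes are near-identical in sequence. Of 70 genes for proteins of the mitochondrial ribosome, 7 had a higher response (10%, against 2.09% of all genes tested) and 0 a lower one. Their median response was -0.02 in yap1∆ cells and -0.49 in WT cells, and 2 were repressed in yap1∆ cells against 26 in WT cells.

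Of 8 heme synthesis genes, 2 had a lower response, HEM13 (-1.13 ± 0.13 (SE, adjusted p = 6.13e-08)) and HEM14 (-0.73 ± 0.18 (SE, adjusted p = 0.00487)), and 0 a higher one. Heme synthesis ends with iron insertion, and HEM13, coproporphyrinogen oxidase, averaged 66.3 ± 13.2 CPM in yap1∆ cells after ethanol and 180.2 ± 16.8 CPM in unstressed yap1∆ cells, against 68.8 ± 6.69 CPM in WT cells after ethanol and 86.3 ± 4.90 CPM in unstressed WT cells. Of 6 glycerol synthesis and transport genes, 2 had a lower response, GPD2 (-0.85 ± 0.19 (SE, adjusted p = 0.00235)) and GPP1 (-0.79 ± 0.12 (SE, adjusted p = 1.38e-05)), and 0 a higher one, with a median response of 1.37 in yap1∆ cells and 2.19 in WT cells.

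Over genes set by the response of YPS606 in the strain experiment, the median response of the 1342 induced genes in a culture averaged 1.502 ± 0.13 over the yap1∆ cultures and 1.47 ± 0.05 over the WT cultures (SD, n = 4 each), and that of the 1247 repressed genes was -1.61 ± 0.08 and -1.68 ± 0.03 in the same order. Replicate 2 of yap1∆ had the highest median for the induced genes among the 8 cultures, 1.70.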
